A study of Caenorhabditis elegans with 17 samples.

Results

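The 10 genes described here encode sensors, chaperones and folding enzymes of the endoplasmic reticulum (ER), measured in the RNA of dissected *C. elegans* oocytes, and are 10 of the 21459 genes that the series' table lists. They were chosen by name, and each name matched exactly 1 gene: the stress sensors *ire-1*, *pek-1* and *atf-6*, the transcription factor gene *xbp-1*, the chaperones *hsp-3*, *hsp-4*, *cnx-1* and *crt-1*, and the disulfide isomerases *pdi-1* and *pdi-2*. The oocytes came from wild-type mothers of the Bristol strain N2, moved at the L4 larval stage to medium with 300 mM NaCl (8 libraries) or to control NGM medium (9 libraries) and kept there until the first day of adulthood. In the titles of each group, replicates run over 3 numbers, each split further by letter, while the sample descriptions elsewhere in the study give 3 replicates per condition with 1 animal each. Libraries that share a number may thus come from the same animal, and which of the 17 libraries entered the authors' fit is not given in the sources used here. The treatment protocol in the labels names the salt medium for every library, controls included, so the groups were taken from the titles and the treatment label. The oocytes nearest the spermatheca were cut from the gonad arm of single animals together with a little gonadal sheath, so the libraries hold RNA of both cell types.

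The value available for each gene is 1 mean normalized count, which the authors averaged over all libraries that entered their fit, whether from mothers on 300 mM NaCl or on control medium. It has no spread and no group, so no difference between 300 mM NaCl and control medium was tested, and the levels below describe oocytes of both groups together. The depth of each library is unknown. For the same reason it cannot be said which neighbours in an order of genes differ beyond the spread between animals. Longer mRNAs give more reads, so for the main comparisons levels were divided by the kilobases of merged exons. The unit is mean normalized count per kilobase. Some ratios are also given by coding length or without division by length, and are named as such. Genes were ranked among the 11264 genes with a mean of 10 or more and a position in the WBcel235 annotation, whose median level was 141.9 per kilobase.

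The ER is where secreted and membrane proteins are folded, given sugar chains and linked by disulfide bonds. When unfolded proteins build up, the unfolded protein response is started by sensors in the ER membrane. IRE-1 is a kinase and RNA nuclease that cuts a short intron out of *xbp-1* mRNA, so that a potent transcription factor is made from it. PEK-1, the worm counterpart of mammalian PERK, slows translation by phosphorylating the initiation factor eIF2α, and ATF-6 is a transcription factor held in the membrane until it is cut free. Among their targets are the folding proteins: HSP-3 and HSP-4 are the worm forms of BiP, the HSP70 chaperone of the ER lumen, CNX-1 (calnexin) and CRT-1 (calreticulin) bind newly made glycoproteins, and the PDI enzymes form and rearrange disulfide bonds. Oocytes make the yolk receptor of their surface and proteins of the future eggshell, which pass through the ER.

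The folding enzymes and chaperones were abundant mRNAs in these libraries, while the sensors ranged from abundant to moderate. All 10 genes had means of 100 or more, as did 30.8% of all genes in the table. The values ran from 228 (*atf-6*) to 2273 (*pdi-2*). Per kilobase, 9 of the 10 lay above the median gene, 8 above the upper quartile of 375 per kilobase and 7 above the 90th percentile. Their median level was 745 per kilobase, 5.25 times that of the median gene. Together they held 0.325% of the summed mean normalized counts of all genes, which came to 4414705. By exon length the order, from the top, was *crt-1*, *pdi-2*, *pdi-1*, *xbp-1*, *hsp-4*, *hsp-3*, *cnx-1*, *ire-1*, *pek-1* and *atf-6*. Steps between neighbours in that order were small for most of its length, with ratios from 1.07 to 1.31 down to *ire-1*, and then larger: *ire-1* stood 2.81 times above *pek-1*, and *pek-1* 1.75 times above *atf-6* (2.70 times without division by length).

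**Figure D1:**
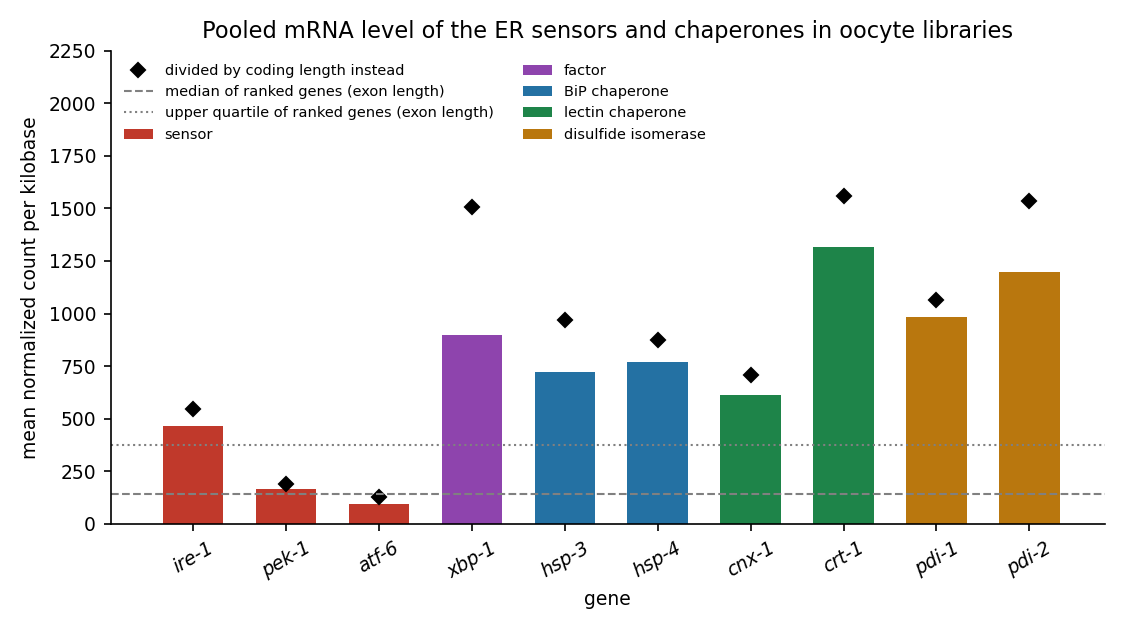
Pooled level of each of the 10 genes, as mean normalized count per kilobase on a linear axis from 0, with bars for merged exon length, diamonds for coding length, and colours for the role of the protein. Dashed and dotted lines mark the median (141.9) and the upper quartile (375) of ranked genes; *pek-1* at 166 and *atf-6* at 94.9 are the bars nearest the median, and no error bars are drawn because each value is a single pooled mean.

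The 3 sensors differed widely from each other in level. *ire-1* (WBGene00002147) is on chromosome II, reverse strand, from 8112243 to 8124910 in WBcel235, with 3401 bases of merged exons. Its mean normalized count was 1586, or 466 per kilobase, at percentile 82.4 of ranked genes. *pek-1* (WBGene00003970), on the reverse strand of the X chromosome from 11410176 to 11414887, had a mean normalized count of 616 over 3709 bases of exons. That is 166 per kilobase, close to the median gene at percentile 53.3. *atf-6* (WBGene00000222), on the forward strand of the X chromosome from 12480948 to 12484904, had 228 over 2402 bases. At 94.9 per kilobase it was the member with the lowest level, at percentile 43.3, and the only one below the median gene.

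Thus *ire-1* mRNA stood at 4.91 times the level of *atf-6* mRNA per kilobase, and this ratio was 4.24 when coding length was used in place of exon length. *gcn-2* encodes the other eIF2α kinase on the lists, which responds to amino acid shortage and not to the ER. The level of *pek-1* was 1.08 times and that of *ire-1* 3.03 times that of *gcn-2*, which stood at 154 per kilobase. Without division by length these ratios were 0.721 and 1.86, so whether *pek-1* stood above or below *gcn-2* depended on that choice. These levels are of mRNA, and the activity of a sensor depends on its protein and on stress in the ER.

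*xbp-1* (WBGene00006959), the target of the IRE-1 nuclease, lies on the forward strand of chromosome III from 4193809 to 4195358. Its mean normalized count was 1297 over 1446 bases of merged exons, or 897 per kilobase at percentile 96.0. Its level was 1.92 times that of *ire-1* and 9.45 times that of *atf-6* per kilobase. Without division by length the ratios were 0.818 and 5.69, so the shorter *xbp-1* mRNA stood above *ire-1* only per kilobase, by 2.76 times when coding length was used. It was also 5.88 times the level of *atf-4* (153 per kilobase), a transcription factor gene of the branch downstream of eIF2α. A count per gene joins the reads of the uncut and the IRE-1-cut form of *xbp-1*, so this level does not say how much of the mRNA had been processed. *rtcb-1*, whose ligase rejoins the cut *xbp-1* exons, was measured at 310 per kilobase, the highest of the non-member genes listed with the sensors.

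Both BiP genes were present at similar levels. *hsp-3* (WBGene00002007) lies on the reverse strand of the X chromosome from 6089028 to 6092124 and had a mean normalized count of 1921 over 2666 bases of exons. *hsp-4* (WBGene00002008), on the reverse strand of chromosome II from 7350112 to 7352645, had 1719 over 2232 bases. *hsp-4* is widely used as a reporter of the unfolded protein response because ER stress raises it strongly in the worm, and in these oocytes its pooled level was not far from that of its sister gene. Per kilobase, *hsp-3* stood at 721 and *hsp-4* at 770, at percentiles 93.0 and 94.1. The ratio of *hsp-3* to *hsp-4* was 0.936 per kilobase of exon, but 1.11 per kilobase of coding sequence and 1.12 without division by length, so which BiP gene was the more abundant depended on that choice. Both genes encode forms of BiP, but how alike their sequences are was not computed. How the authors' counting treated any reads that match both is not given in the sources used here.

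Within the HSP70 family the ER forms lay between the abundant cytosolic form and the heat-inducible one. The levels of *hsp-3* and *hsp-4* were 0.372 and 0.398 of that of *hsp-1*, the constitutive cytosolic HSC70, which stood at 1937 per kilobase. They were 1.53 and 1.64 times that of *hsp-6*, the mitochondrial form, at 470 per kilobase. *hsp-110*, a larger cytosolic relative, stood at 767 per kilobase. Against *hsp-70*, a heat-inducible cytosolic form at 16.5 per kilobase, the ratios were 43.7 for *hsp-3* and 46.7 for *hsp-4*. The pooled level of *hsp-4*, which ER stress can raise, was thus not low like that of the heat-inducible *hsp-70*. A level pooled over both groups does not say whether *hsp-4* was induced in these oocytes.

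The lectin chaperones differed by a factor of 2.15 per kilobase. *crt-1* (WBGene00000802), the soluble calcium-binding calreticulin, lies on the reverse strand of chromosome V from 6098992 to 6100542. Its mean normalized count of 1846 over only 1401 bases gave 1318 per kilobase, which placed it first among the 10 genes, at percentile 98.2 with 206 ranked genes above it. *cnx-1* (WBGene00000567), the membrane-bound calnexin, is on chromosome III, reverse strand, from 9814364 to 9817137 and had 1312 over 2141 bases, or 613 per kilobase at percentile 90.1. Without division by length the ratio of *crt-1* to *cnx-1* was 1.41, since the calnexin mRNA is the longer one. The glucosyltransferase encoded by *uggt-1* marks misfolded glycoproteins for another round of binding to these lectins. *uggt-1* stood at 196 per kilobase and its homologue *uggt-2* at 17.4.

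Part of the *crt-1* exons is shared with another gene. *smut-1*, on the opposite strand, overlaps 92 exon bases of *crt-1* (6.57% of them) and had a mean normalized count of 1190. *cnx-1* shares 49 exon bases with *ZK632.14* on the opposite strand, whose mean was 243, and *ire-1* shares 4 with *unc-105*, whose mean was 57.3. The library kit keeps strand, but whether the counting used it is not given in the sources used here, so reads from the shared bases may be counted for either gene. *pdi-2* shares 18 bases with the noncoding gene *C07A12.19* on its own strand. The other 6 members overlap no annotated gene.

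The disulfide isomerases stood beside *crt-1* at the top of the order. *pdi-2* (WBGene00003963) lies on the forward strand of the X chromosome from 4524155 to 4526536, and its mean normalized count of 2273 was the highest of the 10 genes. Over 1898 bases of exons this gave 1198 per kilobase, at percentile 97.8. *pdi-1* (WBGene00003962), on chromosome III, reverse strand, from 3699739 to 3701461, had 1548 over 1577 bases, or 982 per kilobase at percentile 96.9. The ratio of *pdi-2* to *pdi-1* was 1.22 per kilobase of exon and 1.44 per kilobase of coding sequence. *cyn-9*, a cyclophilin gene, begins 98 bases downstream of *pdi-1* on the same strand and stood at 325 per kilobase. The nearest same-strand coding genes within 2000 bases of a member varied widely. They ran from 2.25 per kilobase (*F46C3.2*, near *pek-1*) to 664 (*dnj-16*, near *xbp-1*).

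Other genes of the same enzyme class had levels close to these. *pdi-3* and *pdi-6* stood at 1052 and 939 per kilobase, so the 4 isomerase genes spanned 939 to 1198. *ero-1*, the oxidase that passes disulfide bonds to the isomerases, stood lower, at 416 per kilobase. PDI-2 is also the partner subunit of the collagen prolyl 4-hydroxylases, and none of the 4 catalytic subunit genes of those enzymes stood above the median gene. *dpy-18*, at 141.7 per kilobase, and *phy-3*, at 122, lay near the median, at percentiles 49.97 and 47.35. *phy-2* stood lower at 45.8 per kilobase, and *phy-4* at 0.842 had a mean below 10. The level of *pdi-2* was 8.45 times that of *dpy-18*, 9.79 times that of *phy-3* and 26.2 times that of *phy-2*, and the ratio to *phy-3* became 17.0 without division by length.

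**Figure D2:**
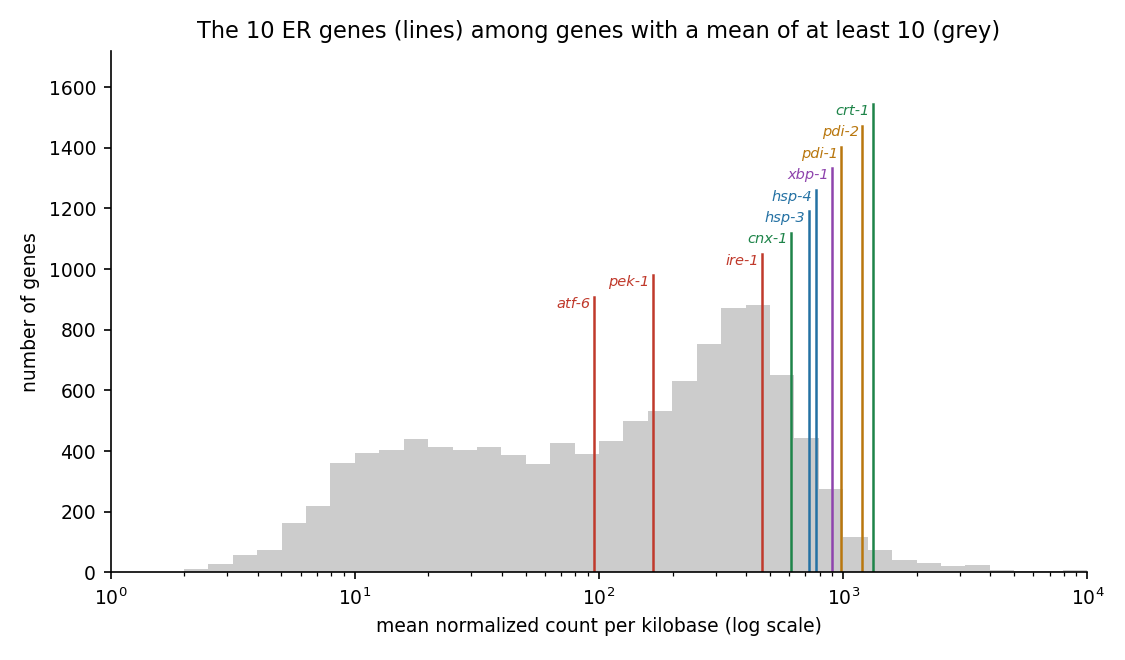
Number of genes by pooled level (mean normalized count per kilobase, log axis) for the 11264 ranked genes in grey, with a coloured line at the level of each of the 10 genes. The 7 chaperone, isomerase and *xbp-1* lines lie on the falling right flank between 613 and 1318, *ire-1* lies at 466, and *pek-1* and *atf-6* lie left of the main peak.

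Levels were also read against the chromosome that carries each gene. Among ranked genes the median was 69.3 per kilobase for the 1427 genes on X and 165 for the 9823 on the autosomes. Of the 10 ER genes, 4 are X-linked: *pdi-2*, *hsp-3*, *pek-1* and *atf-6*. All 4 stood above the median of X-linked genes. *pdi-2* and *hsp-3* were at percentiles 99.0 and 97.4 of the X chromosome, and both exceeded 476 per kilobase, the 95th percentile of X-linked genes. *pek-1* was at percentile 74.6 and *atf-6* at percentile 57.8 of X-linked genes. The sensors with the lowest levels were thus both X-linked, and *atf-6*, below the median of all ranked genes, was above that of its own chromosome. The other 6 genes are autosomal, and each stood above the autosomal median, from 466 (*ire-1*) to 1318 (*crt-1*) per kilobase. Of these, *crt-1*, *pdi-1* (982) and *xbp-1* (897) exceeded 843 per kilobase, the 95th percentile of autosomal genes.

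**Figure D3:**
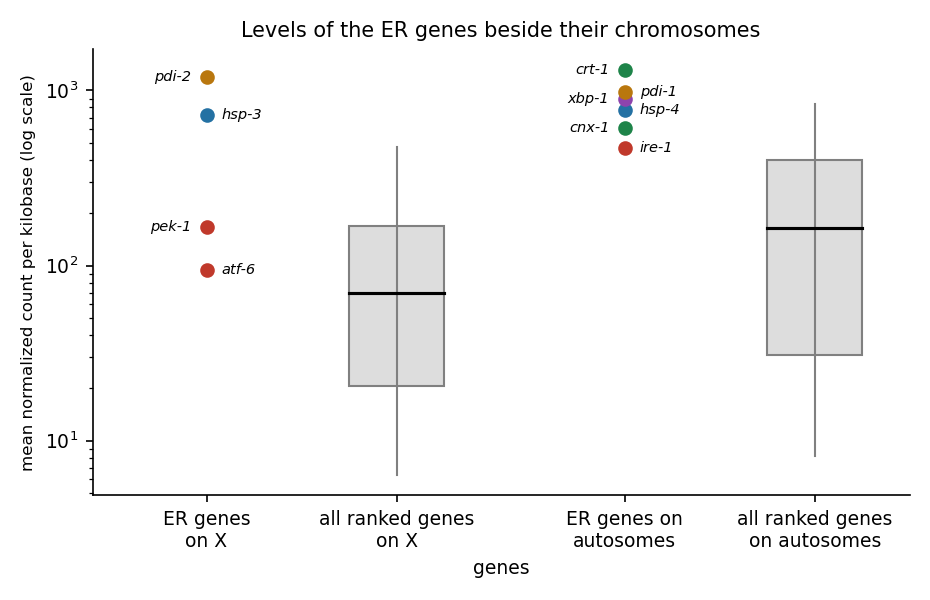
Pooled level (mean normalized count per kilobase, log axis) of the 4 X-linked and the 6 autosomal ER genes as points, each set beside all ranked genes of the same chromosomes. Boxes span the quartiles with a line at the median (69.3 on X, 165 on autosomes). Grey lines run from the 5th to the 95th percentile. *pdi-2* and *hsp-3* lie above that range on X, and *crt-1*, *pdi-1* and *xbp-1* lie above it on autosomes.

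The 10 genes were then set beside the other genes of the pathway, from lists written with earlier results of these data known. Of 43 other gene names on the pathway lists, *gcn-2* and *atf-4* among them, 40 matched a name in the table. The median was 745 per kilobase for the 10 members and 582 for these 40. A mean of at least 10 was found for all 40, as for 52.56% of all genes in the table, and 39 (97.5%) reached 100, against 30.8% of all genes. The genes of protein entry into the ER were as abundant as the chaperones: the 9 measured genes of translocation and signal peptidase had a median of 803 per kilobase, from 542 (*spcs-3*) to 1358 (*sec-61.A*, the channel through which new chains enter). The 5 oligosaccharyltransferase subunits, which add sugar chains, ran from 634 (*ostd-1*) to 896 (*ostb-1*) with a median of 759. The 10 measured genes of ER-associated degradation had a median of 536 and a wider range, from 78.1 (*npl-4.1*) to 995 (*cdc-48.1*, an ATPase that extracts proteins from the membrane).

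The partners of BiP were uneven. *enpl-1*, the ER form of HSP90, stood at 1185 per kilobase, above both BiP genes. *T24H7.2* and *T14G8.3*, members of the HSP70 superfamily listed with the ER chaperones, stood at 519 and 262. The DnaJ proteins stimulate the ATPase of BiP, and the 3 listed genes lay near the median gene, from 132 (*dnj-7*) to 175 (*dnj-20*) per kilobase, so their levels were well below the 721 and 770 of *hsp-3* and *hsp-4*. Of the calcium genes, *sca-1*, the pump that fills the ER with calcium, stood at 589 per kilobase and *itr-1*, the release channel, at 64.8.

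**Figure D4:**
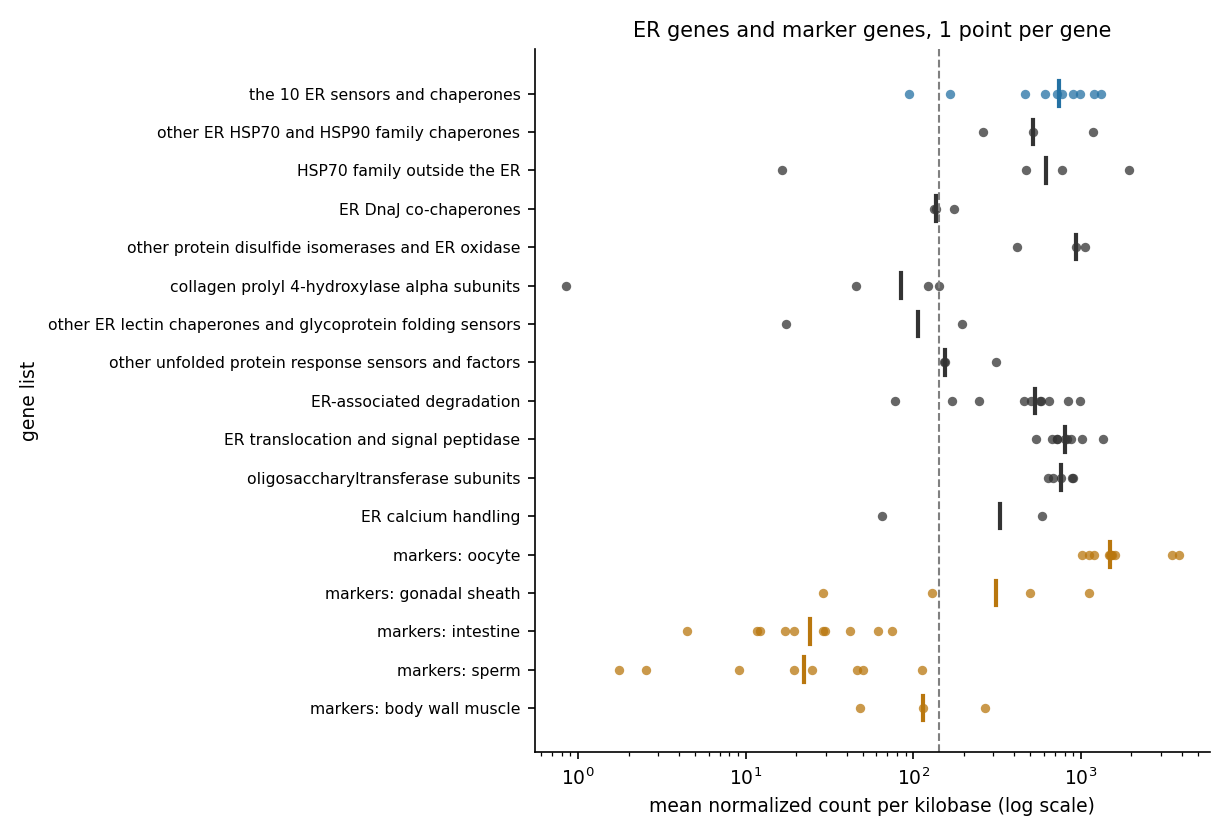
Pooled level (mean normalized count per kilobase, log axis) of the 10 ER genes in blue, of other ER and chaperone lists in black and of cell type marker lists in orange, 1 point per gene with a bar at the median of each list. The dashed line is the median of ranked genes (141.9); translocation genes (median 803) lie near the 10 ER genes (median 745), and oocyte markers (median 1500.3) lie to their right.

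Markers were used to check which cells the RNA came from. All 10 oocyte markers stood at or above 1011 per kilobase, with *perm-2*, a gene of the permeability barrier of the eggshell, highest at 3856, and a median of 1500.3, above the 1318 of *crt-1*. The 4 gonadal sheath markers were uneven, with a median of 313 per kilobase. The gap junction genes *inx-8* and *inx-9* stood at 1117 and 497, while the transcription factor genes *lim-7* and *ceh-18* lay below the median gene at 129 and 29.1, *ceh-18* near the median of the intestinal markers. Intestinal markers lay below the median gene, with *vit-2*, a yolk protein gene, highest at 74.4 per kilobase and a median of 24.2 over 10 genes. Sperm markers had a median of 22.2, with *msp-3* highest at 113. The 3 genes listed as markers of body wall muscle had a median of 113.9, and only *unc-15*, at 268, stood above the median gene. Whether their RNA came from body wall muscle or from the sheath cannot be told apart here. All cells have an ER, so the share of each member's RNA that came from sheath cut off with the oocyte cannot be told apart from that of the oocyte. In pooled libraries of this kind, fewer cells of a type and less RNA per cell cannot be told apart either.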

How the data were processed

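Oocyte RNA was sequenced after a stranded total RNA kit for low input, and the labels put 8 libraries at 300 mM NaCl and 9 in the control. STARsolo was run by the authors against WBcel235, genes that did not reach 10 reads in the samples together were dropped, and DESeq2 was fitted. The labels' processing notes also name kallisto, and versions and the model are not given in the sources used here. Per the file headers, the deposited signal used here is the mean normalized count, in which the authors divided counts by a size factor per library and averaged them over the libraries entered. The other 5 value columns hold the authors' own comparison (log2 fold change, standard error, statistic, p and adjusted p) and were not used. No column of single libraries was used, so no test was run.

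Merged exon length, coding length (the longest coding sequence of a gene), position and overlaps came from Ensembl release 115 of the same build, which held 21399 of 21459 identifiers; the other 60 were not ranked. Levels were divided by exon kilobases. Percentiles cover genes with a mean of at least 10. Length merging and percentiles were tested on simulated data. The members and lists were chosen with earlier results of these data known. All members are named, as are the HSP70 and isomerase genes. So are the highest and lowest gene of each pathway list and the highest gene of each marker list. Other genes were chosen after their values were seen: *gcn-2*, *atf-4*, *rtcb-1*, *uggt-1*, *phy-2*, *phy-3*, and the overlapping and neighbouring genes, *cyn-9* among them. The same holds for the sheath markers other than *inx-8* and the pairs other than *hsp-3* and *hsp-4*. Of 96 listed names, 3 (*atf-5*, *der-2* and *emo-1*) matched no name in the table and were left out. Their genes may be in the table under other names. Python 3.11.15, numpy 2.4.6, pandas 2.3.3 and matplotlib 3.10.9 were used.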

Additional observations from a re-analysis of the deposited data

How the results depend on the processing

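No paired analysis was possible because each gene has 1 pooled mean and no column carries a replicate number, and leaving out each replicate was not run for the same reason. With no spread between libraries, a level, ratio or share was taken as moved when it changed by over 1.5 times and a percentile when it changed by over 5 points. Of 99 values under alternatives, 75 did not move by this measure, 19 moved and 5 changed side of 1. The alternatives for the 19 pairs of genes other than *hsp-3* and *hsp-4* were added after seeing the data. The ratio of *hsp-3* to *hsp-4*, 0.936, became 1.11 with coding length and 1.12 without division by length. Without that division, the ratio of *xbp-1* to *ire-1* was 0.818, against 1.92 per kilobase, and that of *pek-1* to *gcn-2* 0.721, against 1.08. On the same scale, *atf-6* stood at 1.36 times the median gene, against 0.669 per kilobase, and the median of the 10 genes at 9.38 times, against 5.25. The exons of the 10 genes have a median length of 2186.5 bases, those of ranked genes 1451. Dividing by coding length moved *xbp-1* above *pdi-1* and *hsp-3* above *hsp-4* in the order. When only the 6602 genes whose mean reached 100 were ranked, *ire-1* stood at percentile 71.1, *pek-1* at 23.6 and *atf-6* at 10.4, while with no filter they stood at 90.7, 75.2 and 69.8. The share held by the 10 genes stayed between 0.325% and 0.332%. Depth per library is unknown, so no difference between neighbouring levels was tested.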
